A study of Mus musculus with 18 samples.

Results

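Gene expression was compared between livers taken late in the dark phase and livers taken late in the light phase, 12 h apart. The 3 livers of zeitgeber time (ZT, hours after lights on) 21 were set against the 3 livers of ZT9, 6 of the 18 livers of the series, and 14427 of the 14451 listed genes had reads in at least 1 of the 6. Both groups were wild-type male mice, 8 to 9 weeks old and kept on 12 h of light and 12 h of dark, and zeitgeber time was the only difference the labels gave. Each sample was a whole liver snap-frozen in TRIzol, from which polyA RNA was sequenced. Of 5 mice per time point, the 3 with the best RNA were sequenced, and every mouse gave 1 liver at 1 time. The comparison asks which genes of the liver differ between opposite ends of the daily cycle.

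The molecular clock of hepatocytes is a feedback loop. BMAL1 (gene Arntl) pairs with CLOCK or NPAS2 and switches on the Period, Cryptochrome and REV-ERB (Nr1d1, Nr1d2) genes through E-boxes. PER and CRY proteins then inhibit that pair, REV-ERB proteins repress Arntl, and ROR receptors compete with them at the same DNA element. The PAR bZIP factors DBP, TEF and HLF and their antagonist NFIL3 pass the rhythm to metabolic genes through D-boxes. In liver these outputs meet feeding signals, since mice eat mostly in the dark.

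The sequences below show such elements immediately upstream of 4 clock genes that differed between the times. They are the called clock genes with the largest differences whose window held an E-box, a D-box or a ROR element and ran at most 30 bases into the annotated gene. Each run is the 250 bases before the annotated start site, 5′ to 3′ on the gene's strand (RefSeq, GRCm38.p6). Capitals mark an E-box (CACGTG) in Ciart and Cry1, a D-box (TTATGTAA or TTACGTAA) in Per3 and a ROR element (ANTAGGTCA or ANTGGGTCA) in Leo1, searched on both strands, and no motif named here contains another.
Ciart: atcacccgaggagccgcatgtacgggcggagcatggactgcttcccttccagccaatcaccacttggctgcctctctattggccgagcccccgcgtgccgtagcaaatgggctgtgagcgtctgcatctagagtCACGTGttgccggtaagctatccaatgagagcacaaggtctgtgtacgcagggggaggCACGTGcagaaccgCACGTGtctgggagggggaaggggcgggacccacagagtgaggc
Per3: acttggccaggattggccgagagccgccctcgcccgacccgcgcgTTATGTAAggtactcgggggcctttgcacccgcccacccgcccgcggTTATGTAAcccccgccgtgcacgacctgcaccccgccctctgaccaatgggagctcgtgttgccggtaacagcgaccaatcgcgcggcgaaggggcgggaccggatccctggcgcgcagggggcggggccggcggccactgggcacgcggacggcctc
Cry1: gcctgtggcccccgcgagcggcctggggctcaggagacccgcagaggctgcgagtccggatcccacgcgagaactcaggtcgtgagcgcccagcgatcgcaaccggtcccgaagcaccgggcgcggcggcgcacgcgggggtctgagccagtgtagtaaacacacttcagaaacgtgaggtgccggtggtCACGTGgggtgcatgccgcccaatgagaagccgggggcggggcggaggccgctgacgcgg
Leo1: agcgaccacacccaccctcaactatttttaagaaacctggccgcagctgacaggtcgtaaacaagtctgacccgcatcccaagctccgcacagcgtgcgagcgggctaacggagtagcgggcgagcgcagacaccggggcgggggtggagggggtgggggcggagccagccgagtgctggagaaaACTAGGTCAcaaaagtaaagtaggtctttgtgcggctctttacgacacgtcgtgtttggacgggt
The Ciart run (chr3:95882229-95882478, minus strand) held 3 E-boxes, the first bases of which lay 116, 58 and 44 bases before the start. The Per3 run (chr4:151044666-151044915, minus strand) held 2 D-boxes, at 205 and 158 bases, and both genes were lower at ZT21. In Cry1 (chr10:85185055-85185304, minus strand) the E-box lay 60 bases before the start, and in Leo1 (chr9:75441274-75441523, plus strand) the ROR element lay at 65 bases. Both of those genes were higher at ZT21.

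Across genes with a promoter in the reference table, E-boxes stood in 16.4% (48 of 293) of the genes lower at ZT21, in 10.3% (37 of 360) of those higher and in 9.7% (1001 of 10319) of all genes tested. D-boxes stood in 2.73% (8 genes) of the lower genes, 0.833% (3 genes) of the higher and 0.814% of all. ROR elements stood in 2.5% (9 genes) of the higher genes, 1.71% (5 genes) of the lower and 1.23% of all. The E′-box (CACGTT) was held by 5.8% of lower, 4.72% of higher and 5.22% of all genes, and a cAMP element (TGACGTCA) by 2.39%, 3.61% and 2.96%. A heat shock element (GAANNTTC or TTCNNGAA) was held by 10.6% of the lower genes, 15% of the higher and 12.2% of all. A sterol element (TCACNCCAC) was held by 1.37%, 1.67% and 1.35%. These shares are descriptions of letters in the windows and were not tested.

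Differences are given as ZT21 minus ZT9 on the log2(value + 1) scale with their standard error, levels as normalized values (estimated reads per 1000000), and a gene is called when its adjusted p is under 0.05 (limma, Benjamini-Hochberg over all 14427 genes). Where 3 values are set against 3, the ZT21 livers come first. The p-values measure the spread between these mice only. The 6 livers held 10268168 to 13251350 estimated reads on genes, so that a value of 1 stands for 10.7 to 12.4 reads. On the log2 scale the livers correlated at 0.986 to 0.990 within a time point and at 0.973 to 0.981 between the times. Albumin, which marks hepatocytes, took 5.14 to 5.55% of the reads at ZT9 and 6.23 to 6.89% at ZT21.

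Between the times 868 genes were called, 6.02% of those tested. Of these, 490 genes (3.40%) were higher and 378 (2.62%) lower at ZT21. The median difference was 0.80 for the higher and -0.73 for the lower genes, and 242 genes passed a 2-fold change, 157 higher and 85 lower. A 4-fold change was passed by 25 higher and 12 lower genes. The ZT21 and ZT9 livers did not overlap in 30.6% of all genes tested, the 868 called genes included, and 3368 genes had an unadjusted p under 0.05. In these bulk livers, fewer cells of a type and less RNA per cell cannot be told apart.

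The count of calls depended on every liver. Without ZT21 liver 1, 2 or 3 it was 289, 414 or 256, and without ZT9 liver 1, 2 or 3 it was 465, 429 or 332, each from 5 livers. In all 6 such fits 203 genes kept their call, 137 higher and 66 lower, and these are described below as steady, while 263 genes kept it in none. With every column scaled to the same total, 364 genes were higher and 370 lower (49.6% higher against 56.5%), a scaling that moved the median of all genes by -0.038.

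**Figure D1:**
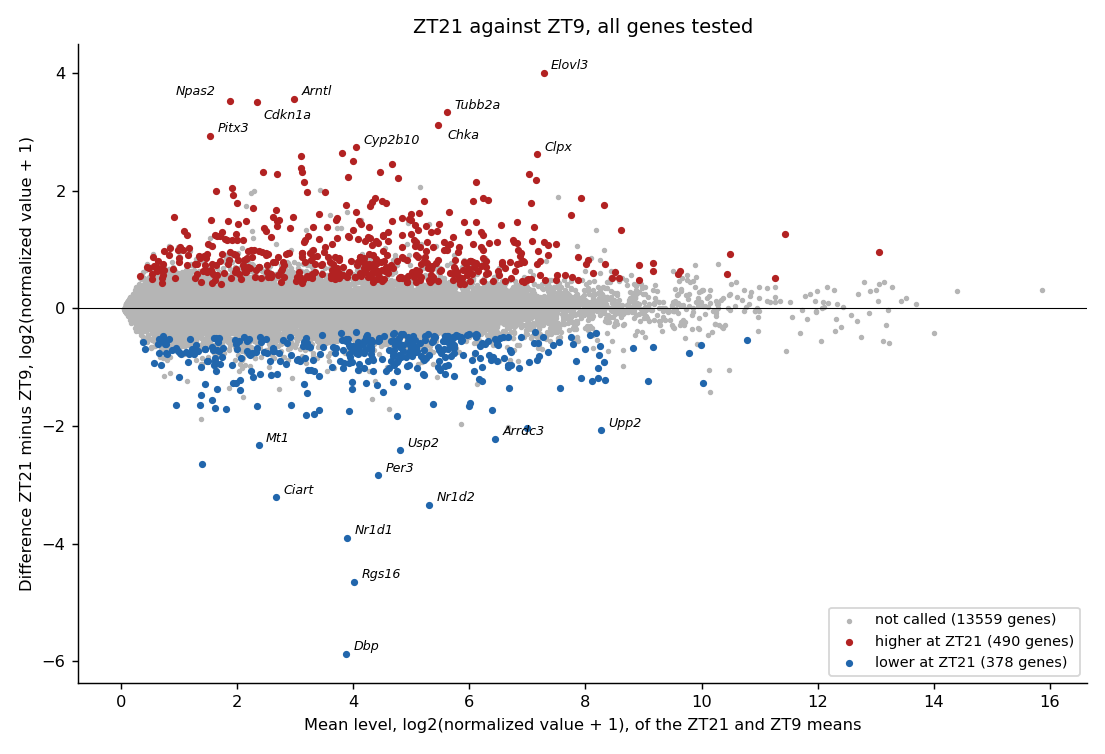
Difference between ZT21 and ZT9 (y axis, log2(value + 1)) against mean level (x axis, log2(value + 1)) for 14427 genes, with the 490 genes called higher in red, the 378 called lower in blue and the rest in grey. Dbp (-5.87) lies lowest and Elovl3 (4.0) highest, and most called genes differ by less than 1 unit.

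The positive limb of the clock was high at ZT21. Arntl, Npas2 and Clock were called higher and steady. Arntl (ENSMUSG00000055116, GRCm38 chr7:113207465-113314126) stood at 1.4, 0.978 and 1.55 in the ZT9 livers and at 23.8, 31.3 and 23.7 in the ZT21 livers. The groups were far apart, with means of 1.31 ± 0.295 and 26.3 ± 4.35 (SD, n = 3), a difference of 3.56 ± 0.15 (adjusted p = 6.95e-05). Npas2 (ENSMUSG00000026077, chr1:39193731-39363236), the other partner of BMAL1, stood at 11.6, 13.4 and 9.5 at ZT21. In the ZT9 livers only 1 read fell on Npas2 in all, against 415 at ZT21, a ratio of 380 with a 95% counting interval of 67.8 to 15047 (adjusted p = 5.47e-05 for the difference of 3.53 ± 0.14). Clock (chr5:76209868-76304792) was 2.51 times higher, at 57.8, 65.3 and 64.9 against 26.5, 26 and 22.4 (difference 1.30 ± 0.11, adjusted p = 0.00148). Rora, a ROR receptor that activates Arntl, with means of 85.3 ± 16 at ZT21 and 80.3 ± 11.9 at ZT9 (SD, n = 3), did not pass the test (0.08 ± 0.17, adjusted p = 0.808).

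The repressor list held 11 genes and split into 2 that were higher and 7 that were lower at ZT21 (81.8% called, against 6.02% of all genes). Nr1d1 (ENSMUSG00000020889, chr11:98767932-98775333), which encodes REV-ERB alpha, stood at 43.9, 81.4 and 47.2 at ZT9 and at 2.1, 3.23 and 3.08 at ZT21. Every ZT21 liver was more than 10-fold below every ZT9 liver (difference -3.90 ± 0.25, adjusted p = 0.000336). Its end overlaps Thra on the opposite strand by 1075 bases, and Thra averaged 11.2 in these livers. Nr1d2 (chr14:18204054-18239127), which encodes REV-ERB beta, was 10.8 times lower, at 9.51, 11.4 and 13.8 against 122, 140 and 114 (-3.34 ± 0.15, adjusted p = 8.01e-05). Ciart (chr3:95878503-95882251), the repressor whose promoter holds 3 E-boxes, stood at 21.9, 14.8 and 18.4 at ZT9 and at 1.74, 0.787 and 0.809 at ZT21 (-3.21 ± 0.21, adjusted p = 0.000386). Among the Period genes Per3 (chr4:151003652-151044665) differed most, from 58.5, 50.5 and 61.1 at ZT9 to 5.93, 8.33 and 7.03 at ZT21 (-2.84 ± 0.14, adjusted p = 0.00011). Per3 shares 41014 bases on its own strand with Camta1, which averaged 3.99 in these livers, so that their reads may be split.

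The other Period genes differed less. Per1 was at 28.5, 24.4 and 31.3 at ZT9 and at 17.5, 10.1 and 11.9 at ZT21 (-1.06 ± 0.20, adjusted p = 0.027), a call kept only without ZT21 liver 1, with adjusted p from 0.0181 to 0.097 over the 6 fits. The Per2 groups came close to overlapping, with 30.2, 19.1 and 22.6 against 43.9, 30.4 and 50.1, and did not pass the test (-0.76 ± 0.22, adjusted p = 0.0946). The DEC repressors, which compete for E-boxes, were both lower. Bhlhe41 was at 0.848, 0.587 and 1.41 against 5.95, 3.91 and 6.25 (-1.71 ± 0.20, adjusted p = 0.00553), and Bhlhe40 at 78.8, 71.1 and 91.5 against 145, 143 and 207 (-1.01 ± 0.18, adjusted p = 0.0217). The Bhlhe40 call was lost without any 1 of the ZT21 livers, with adjusted p up to 0.0819.

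Cry1 and Nfil3 went the other way. Cry1 (chr10:85131700-85185064), which encodes a potent cryptochrome repressor, stood at 12.4, 6.85 and 7.73 at ZT9 and at 45.2, 54.6 and 43.1 at ZT21 (2.32 ± 0.21, adjusted p = 0.00172). Nfil3 (chr13:52967209-52981073) stood at 41.4, 45 and 42.1 against 11.3, 13.1 and 10.8 (1.79 ± 0.11, adjusted p = 0.000296). Both were steady, as were Nr1d1, Nr1d2, Ciart, Per3 and Bhlhe41. Cry2, with means of 32 ± 6.1 at ZT21 and 40.6 ± 3.98 at ZT9 (SD, n = 3), did not pass the test (-0.34 ± 0.16, adjusted p = 0.237). Of the 11 clock kinases and ubiquitin ligases none was called, where 6.02% of all genes were. A list this small could hold none at that share. Differences ran from -0.31 to 0.27, and the most abundant, Huwe1, gave -0.10 ± 0.11 (adjusted p = 0.597).

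The direct outputs of the clock were mostly low at ZT21, with 7 of 11 called lower and 2 higher (81.8% called, against 6.02% of all genes). Dbp (ENSMUSG00000059824, chr7:45705088-45710203) showed the largest difference of all genes tested. It stood at 106, 112 and 113 at ZT9 and at 1.01, 1.29 and 0.515 at ZT21, a ratio of means of 118 (-5.87 ± 0.16, adjusted p = 1.63e-05). Its end overlaps Sphk2 on the opposite strand by 737 bases. Tef (chr15:81802421-81826863), its relative, was 4.13 times lower, at 60.2, 64.7 and 61.5 against 262, 242 and 267 (-2.03 ± 0.10, adjusted p = 9.75e-05). Hlf, the third of the family, differed less, at 36.9, 47.4 and 35.8 against 73.4, 62.5 and 68 (-0.76 ± 0.14, adjusted p = 0.025), and kept its call only without ZT21 liver 2, with adjusted p up to 0.0928.

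Among the enzymes of this list, Usp2, a ubiquitin-specific protease, was at 13, 9.4 and 11.2 against 66.8, 62.8 and 60.7 (-2.41 ± 0.13, adjusted p = 0.000167). Wee1, the kinase that holds back entry into mitosis, was at 2.95, 5.18 and 3.54 against 18.9, 15.6 and 13.5 (-1.81 ± 0.19, adjusted p = 0.00356). Both were steady. Por, the electron donor of microsomal P450 enzymes, gave -1.19 ± 0.18 (adjusted p = 0.0145) and Nampt, the rate-limiting enzyme of NAD salvage, -0.85 ± 0.13 (adjusted p = 0.0143). Both calls were lost without ZT21 liver 1 or 3, with adjusted p up to 0.0651 and 0.0582. Ypel2 (1.88 ± 0.25, adjusted p = 0.00815) and Leo1 (1.23 ± 0.11, adjusted p = 0.00177), a subunit of the PAF1 transcription complex, were higher at ZT21 and steady. Tspan4 (adjusted p = 0.0869) and Cys1 (adjusted p = 0.125) did not pass the test.

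**Figure D2:**
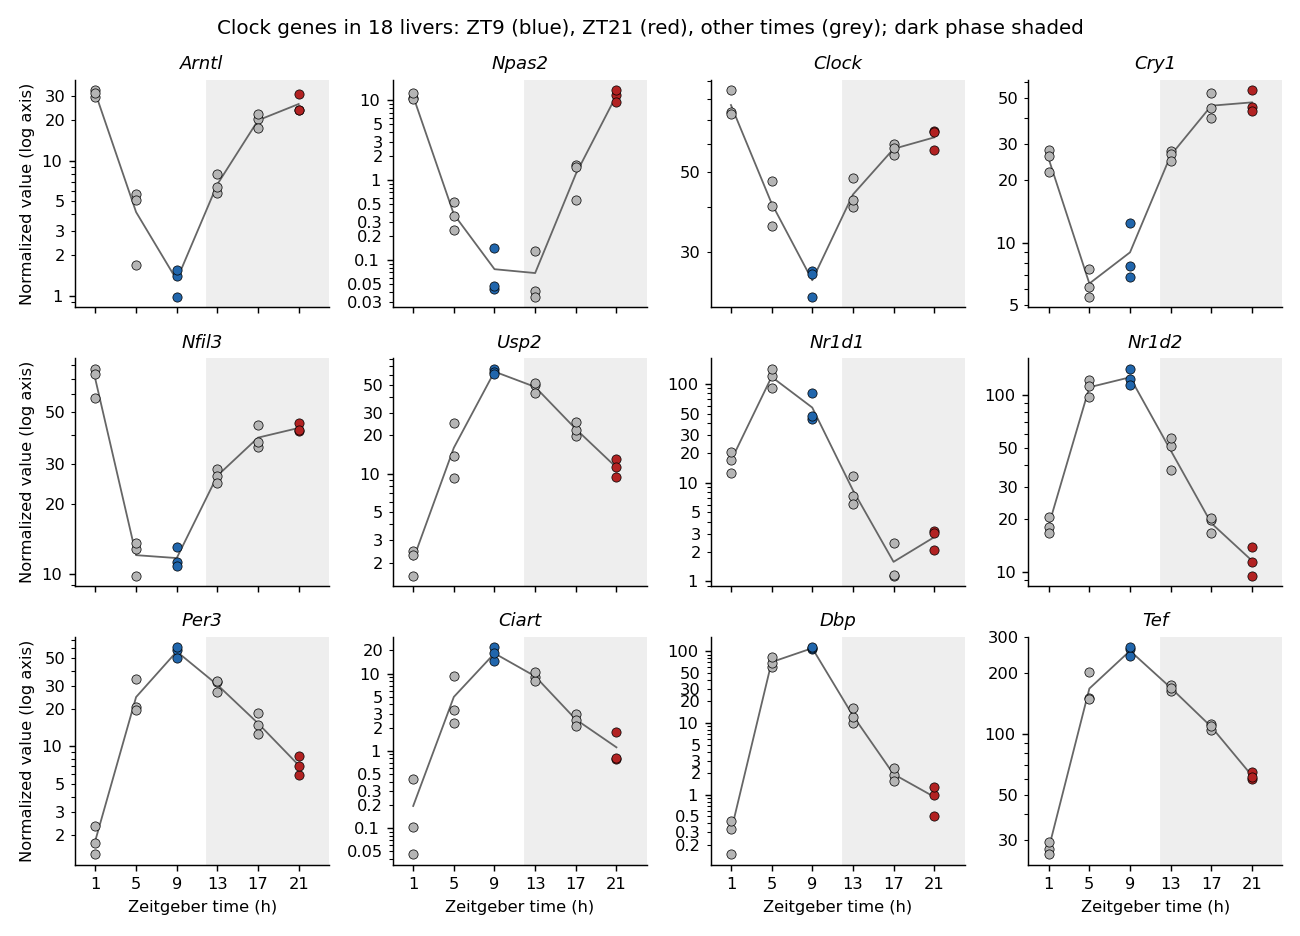
Normalized values (log axis) of 12 clock genes in the 18 livers against zeitgeber time in hours, with ZT9 livers in blue, ZT21 livers in red, the others in grey, lines through the means of 3 livers and the dark phase shaded. Arntl runs from a mean of 1.31 at ZT9 to 26.3 at ZT21, while Dbp runs from 111 to 0.936.

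Over the 6 time points the clock genes were not all at their extremes in these livers. Dbp, Tef, Nr1d2, Per3, Ciart, Usp2 and Wee1 had their highest mean at ZT9, but only Nr1d2 of these had its lowest at ZT21, and the others had theirs at ZT1. Arntl, Clock and Nfil3 had their lowest mean at ZT9 and their highest at ZT1. Over all 490 genes higher at ZT21, the highest of the 6 means was at ZT21 for 198 (40.4%), at ZT1 for 142 (29%) and at ZT17 for 129 (26.3%), and the lowest at ZT9 for 355 (72.4%). Over the 378 lower genes, the highest mean was at ZT9 for 252 (66.7%), at ZT5 for 81 (21.4%) and at ZT13 for 44 (11.6%), and the lowest was at ZT21 for 148 (39.2%). Of all genes tested, 12.9% had their highest mean at ZT21 and 16% at ZT9. The same ZT9 and ZT21 livers that gave the calls enter these means, so they are a description.

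**Figure D3:**
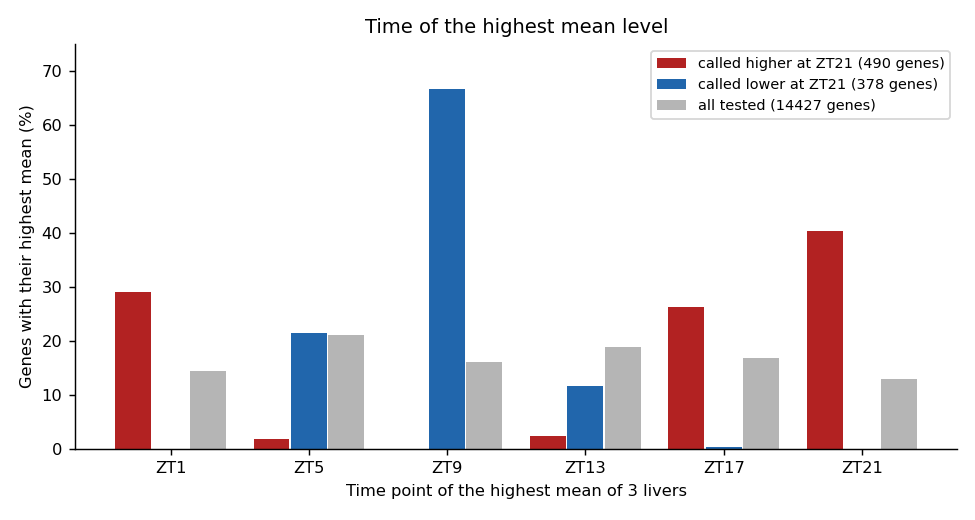
Percent of genes (y axis) whose highest mean of 3 livers falls at each of the 6 time points (x axis), for the 490 genes called higher at ZT21 (red), the 378 called lower (blue) and all 14427 tested (grey). The red bars are tallest at ZT21 (40.4%), ZT1 and ZT17 and the blue bars at ZT9 (66.7%), ZT5 and ZT13.

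Outside the clock lists, the largest differences were in Rgs16, described below, and Elovl3. Elovl3 (ENSMUSG00000038754, chr19:46131897-46135694), an elongase of very long-chain fatty acids, stood at 47.1, 29.9 and 37.3 at ZT9 and at 652, 620 and 579 at ZT21, 16.2 times higher (4.0 ± 0.17, adjusted p = 6.58e-05). Its neighbour Pitx3 (chr19:46135685-46148326), which overlaps it by 10 bases on the opposite strand, had no read in any ZT9 liver and 5.13, 8.57 and 7.54 at ZT21, at least 26-fold higher (floor of 3 reads per library, adjusted p = 0.000226). Chka (chr19:3851773-3894369), the choline kinase that starts phosphatidylcholine synthesis, was at 145, 129 and 116 against 13.9, 14.4 and 13.7 (3.12 ± 0.11, adjusted p = 5.47e-05). Clpx (chr9:65294260-65330658), the unfoldase of a mitochondrial protease that also acts in heme synthesis, was at 357, 389 and 319 against 60.6, 59.3 and 50.6 (2.62 ± 0.12, adjusted p = 8.62e-05).

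Cdkn1a (ENSMUSG00000023067, chr17:29090976-29100727), which encodes the cell cycle inhibitor p21, was 32.1 times higher, at 21.1, 14.6 and 12.6 against 0.383, 0.885 and 0.234 (3.5 ± 0.22, adjusted p = 0.000355). Tubb2a (chr13:34074274-34078007), a beta tubulin, was 10.7 times higher, at 155, 138 and 173 against 14.9, 15.4 and 13.2 (3.33 ± 0.12, adjusted p = 5.47e-05). Cyp2b10 (chr7:25897620-25926624), a drug-metabolizing P450 with close paralogs among which reads may be split, was at 44.8, 44.4 and 36.5 against 6.17, 4.33 and 5.86 (2.74 ± 0.15, adjusted p = 0.000167). All 10 of the most increased genes, Arntl, Npas2 and Pitx3 among them, were steady.

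Of the 10 most decreased genes with a mean of at least 5 at ZT9, 9 were steady and 6 belong to the clock repressors or outputs above. Rgs16 (chr1:153740349-153745468), a brake on G-protein signalling that responds to fasting in liver, was at 66.7, 38.1 and 129 at ZT9 and at 0.767, 5.43 and 0.894 at ZT21. Its spread was wide (-4.65 ± 0.58, adjusted p = 0.00683), and groups that do not overlap were a condition for these 10 genes. Arrdc3 (chr13:80883384-80896042), an arrestin-domain gene, was at 29.7, 49.7 and 38.3 against 179, 255 and 134 (-2.22 ± 0.27, adjusted p = 0.00553). Upp2 (chr2:58567298-58792971), the liver uridine phosphorylase, was at 165, 156 and 127 against 527, 620 and 756 (-2.07 ± 0.16, adjusted p = 0.000978). Mt1 (chr8:94179082-94180327), a metal-binding metallothionein, was at 1.09, 1.7 and 0.724 against 10.1, 19.5 and 4.45 (-2.33 ± 0.44, adjusted p = 0.0275). The Mt1 call was lost without any 1 of the ZT21 livers or ZT9 liver 1, with adjusted p up to 0.0971.

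**Figure D4:**
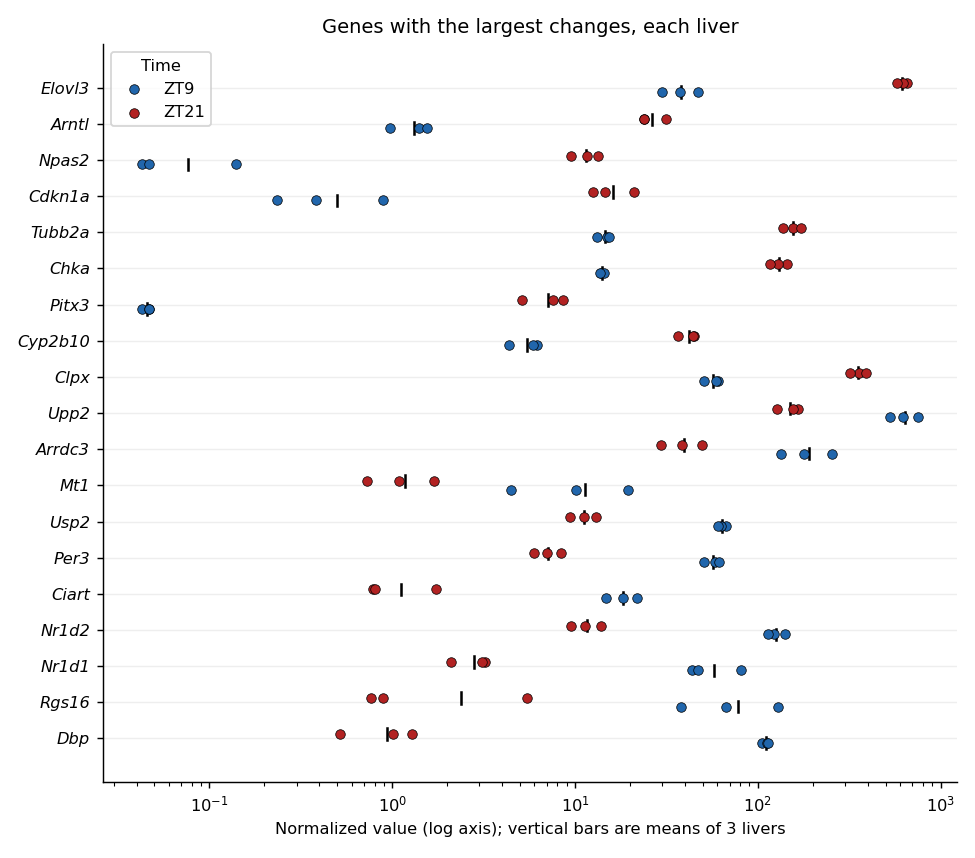
Normalized values (x axis, log scale) of genes with the largest differences in each ZT9 (blue) and ZT21 (red) liver, with bars at the means of 3 livers. Genes were shown only if their groups did not overlap, and the Rgs16 and Mt1 livers are the most spread.

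Among called genes, the largest differences in absolute level were in Scd1, Bhmt and Cyp3a11. Albumin, which did not pass the test, differed by more, with means of 66201 at ZT21 and 52953 at ZT9 (Alb, 0.32 ± 0.10, adjusted p = 0.117). Scd1 (chr19:44394455-44407879), the desaturase that makes monounsaturated fatty acids, stood at 6566, 5795 and 5916 at ZT9 and at 9700, 11443 and 14903 at ZT21 (0.96 ± 0.17, adjusted p = 0.0215). Bhmt (chr13:93616675-93637961), which remethylates homocysteine with betaine, was at 5551, 4588 and 2921 against 1587, 2122 and 1560 (1.27 ± 0.25, adjusted p = 0.0298). Cyp3a11, the main inducible P450 of mouse liver, was at 1533, 2351 and 2080 against 1187, 885 and 1024 (0.93 ± 0.19, adjusted p = 0.033). None of these 3 calls was steady: Scd1 lost its call without ZT21 liver 2 or 3 or ZT9 liver 2 or 3 (up to 0.0741), Bhmt without ZT21 liver 1 or 2 or ZT9 liver 1 or 3 (up to 0.0967), and Cyp3a11 in every fit but the one without ZT21 liver 1 (up to 0.11). On the lower side, Uox, the urate oxidase that mice keep and humans have lost, was at 1429, 1492 and 1475 against 2137, 2070 and 2157 (-0.53 ± 0.09, adjusted p = 0.0217), a call lost in all 6 fits (0.0538 to 0.0827). Rnase4 (-1.24 ± 0.24, adjusted p = 0.0303) shares 10860 bases on its own strand with Ang, so that their reads may be split.

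**Figure D5:**
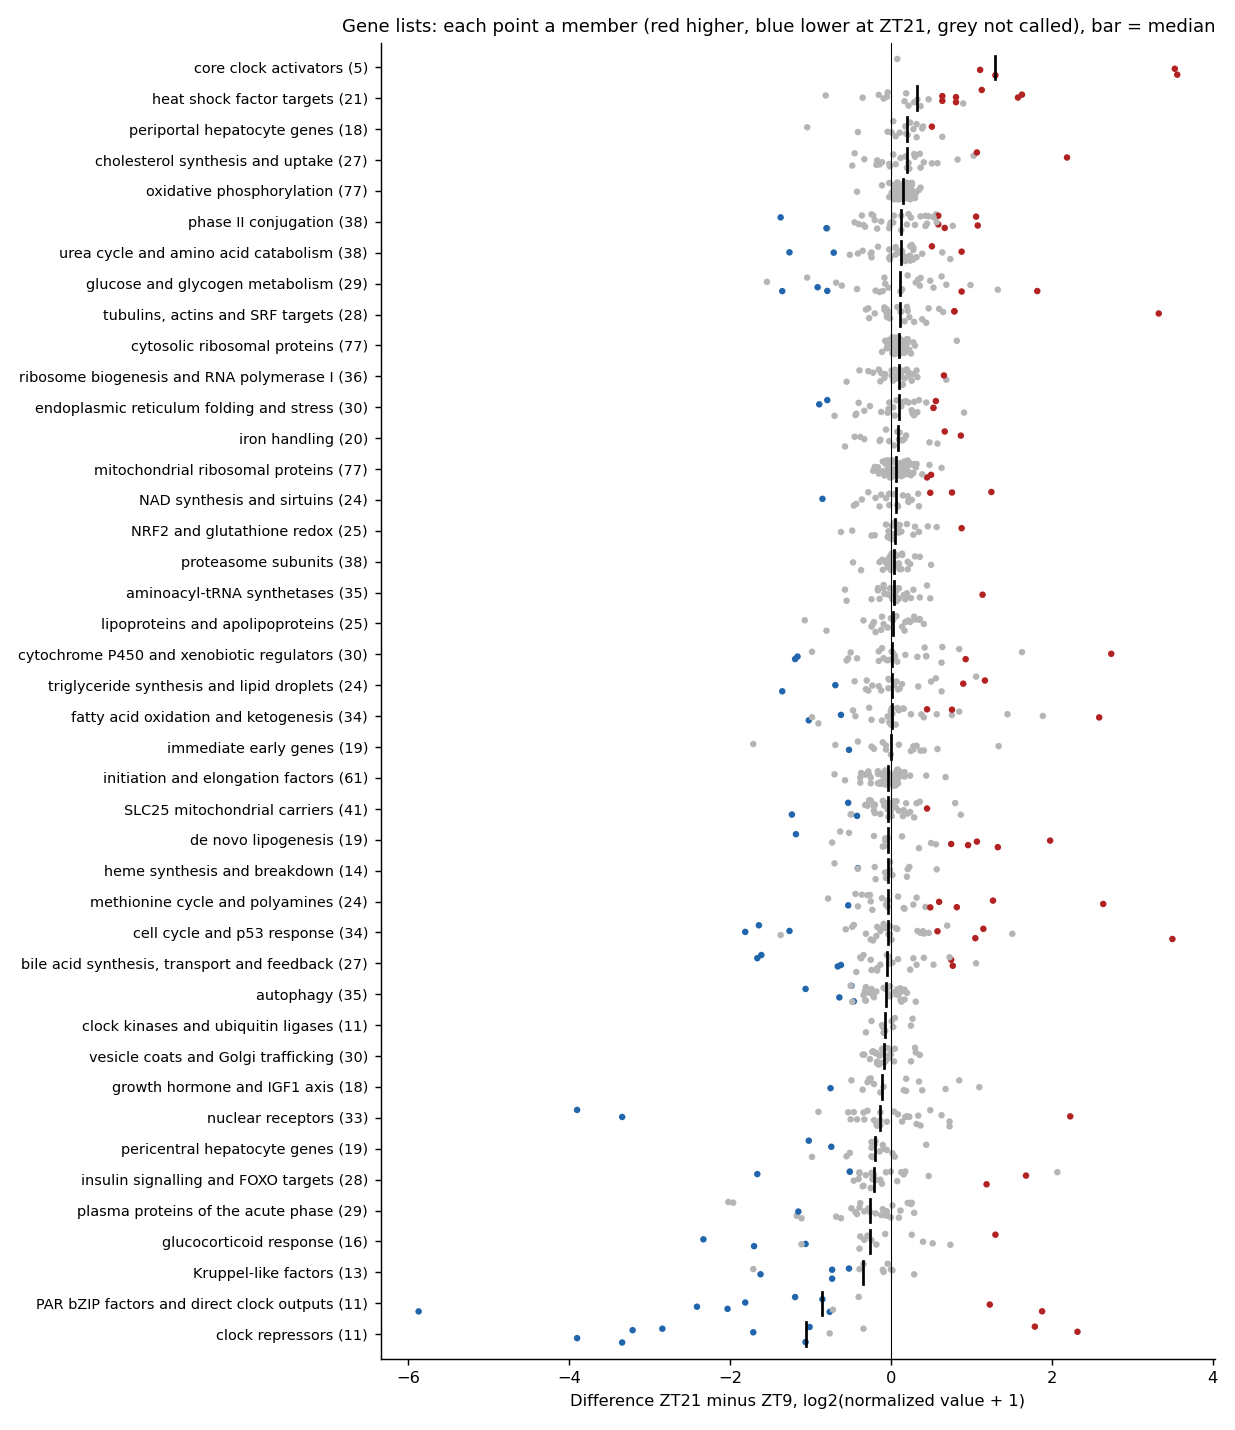
Difference between ZT21 and ZT9 (x axis, log2(value + 1)) of each measured member of the gene lists (a line each, with its number of members), with called members in red or blue, the others in grey and a bar at the median. The clock lists spread from -5.87 to 3.56, while the cytosolic ribosomal, respiratory chain and proteasome lists hold no call and have medians of 0.10, 0.15 and 0.04. Of all genes 6.02% were called.

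Of the 19 genes of de novo lipogenesis, 5 were called higher and 1 lower (31.6% called against 6.02% of all genes), with a median of -0.04. Elovl5, an elongase of polyunsaturated fatty acids, was steady, at 535, 692 and 633 against 262, 263 and 215 (1.33 ± 0.14, adjusted p = 0.00347). Pnpla3 (1.98 ± 0.44, adjusted p = 0.0466) and Acacb, the carboxylase whose product blocks fatty acid import into mitochondria (1.07 ± 0.19, adjusted p = 0.0248), were higher as well. Fads2, the delta-6 desaturase, was lower, at 191, 213 and 181 against 386, 591 and 375 (-1.18 ± 0.19, adjusted p = 0.0162). The 5 calls other than Elovl5 were not steady, with adjusted p up to 0.131 for Pnpla3, 0.091 for Acacb and 0.0688 for Fads2. Without ZT21 liver 1, 2 or 3 the list held 3, 3 or 1 calls, and without ZT9 liver 1, 2 or 3 it held 6, 3 or 2.

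In triglyceride metabolism 2 of 24 genes were called higher and 2 lower (16.7% called, against 6.02% of all genes). Plin5, which coats lipid droplets beside mitochondria, was steady, at 55.5, 47.8 and 43.1 against 22.1, 19.2 and 22 (1.17 ± 0.13, adjusted p = 0.00391), and Agpat2, an acyltransferase of triglyceride synthesis, gave 0.90 ± 0.14 (adjusted p = 0.0136, lost without ZT21 liver 1 at 0.0587). Lpin1 (-1.35 ± 0.30, adjusted p = 0.0441) and Pnpla2, the first lipase of the lipid droplet (-0.69 ± 0.13, adjusted p = 0.0253), were lower. The Lpin1 call was kept only without ZT9 liver 2 and the Pnpla2 call in no fit, with adjusted p up to 0.115 and 0.0873. The list held 1 call without ZT21 liver 1 and 2 without ZT21 liver 2 or 3 or ZT9 liver 1 or 3.

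Of 34 genes of fatty acid oxidation and ketogenesis, 3 were higher and 2 lower (14.7% called, against 6.02%), with a median of 0.01. Pdk4, the kinase that shuts pyruvate out of the mitochondrial cycle in fasting, was at 11.9, 34.6 and 16.4 against 2.43, 2.01 and 2.58 (2.59 ± 0.34, adjusted p = 0.00767). Cpt1a, the gate of fatty acid import into mitochondria, went the other way, at 197, 249 and 185 against 410, 447 and 411 (-1.02 ± 0.13, adjusted p = 0.00843). Both were steady. Bdh1, which interconverts the ketone bodies, was at 139, 139 and 137 against 209, 221 and 211 (-0.62 ± 0.09, adjusted p = 0.0132, lost without ZT21 liver 3 at 0.0617). Without ZT9 liver 1 the list held 7 calls in place of 5, without ZT21 liver 3 it held 2, and without ZT21 liver 1 or ZT9 liver 2 or 3 it held 3.

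Of 27 cholesterol genes only Insig2 and Pmvk were called, a share of 7.41% that lies near the 6.02% of all genes. Insig2, a brake on the sterol regulator SREBP, was steady, at 299, 313 and 295 against 77.2, 70.2 and 51.2 (2.19 ± 0.16, adjusted p = 0.000633). Pmvk, an enzyme of the mevalonate pathway, gave 1.07 ± 0.17 (adjusted p = 0.0174) and kept its call only without ZT9 liver 2 (up to 0.0689), the fit in which the list held 6 calls, against 1 in the other fits. Of 27 bile acid genes 2 were higher and 4 lower (22.2% called), and the list held 3 calls without ZT21 liver 1 or 3 or ZT9 liver 2 or 3. Abcg5 and Abcg8, which pair into the sterol exporter, stood at 95.3, 118 and 122 and at 104, 128 and 108 at ZT9. At ZT21 they stood at 39.1, 33.5 and 34.6 and at 36.2, 35.4 and 33.9 (-1.61 ± 0.13, adjusted p = 0.00107, and -1.66 ± 0.12, adjusted p = 0.000565). The pair overlaps on opposite strands by 6710 bases. Abcb11, the bile salt export pump, was higher, at 740, 772 and 744 against 454, 448 and 417 (0.77 ± 0.10, adjusted p = 0.00651), and these 3 transporters were steady.

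In glucose and glycogen metabolism 3 of 29 genes were lower and 2 higher (17.2% called, against 6.02% of all genes). Gys2, the liver glycogen synthase, was at 305, 295 and 309 at ZT9 and at 113, 125 and 117 at ZT21 (-1.35 ± 0.10, adjusted p = 0.000614). Slc2a2, the glucose transporter GLUT2, was at 222, 246 and 226 against 424, 398 and 488 (-0.91 ± 0.12, adjusted p = 0.00714). Ugp2, which makes UDP-glucose for glycogen, was at 221, 234 and 230 against 429, 380 and 381 (-0.79 ± 0.10, adjusted p = 0.00727). These 3 were steady. Ppp1r3c, which brings a phosphatase to glycogen and thereby activates the synthase, was higher (1.82 ± 0.41, adjusted p = 0.0459), a call lost in all 6 fits (0.0615 to 0.126). G6pdx, the entry to the pentose phosphate pathway, was higher at 0.88 ± 0.13 (adjusted p = 0.013, up to 0.0576 without ZT21 liver 1 or 3) and overlaps Ikbkg, at 82.2 the more abundant, by 19712 bases on the opposite strand. Without ZT21 liver 1 or 3 the list held 3 calls in place of 5.

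Of 28 insulin signalling and FOXO genes 2 were higher and 2 lower (14.3% called, against 6.02% of all genes). Ddit4, an inhibitor of mTORC1, was at 10.1, 11.6 and 9.33 against 2.34, 2.1 and 3.23 (1.68 ± 0.15, adjusted p = 0.00155) and was the steady member. Irs2, an adaptor of the insulin receptor, was higher (1.19 ± 0.23, adjusted p = 0.0286), and Trib3 (-1.66 ± 0.27, adjusted p = 0.0176) and Mtor (-0.51 ± 0.11, adjusted p = 0.0468) were lower. Those 3 calls were lost in 4, 4 and 6 of the 6 fits, with adjusted p up to 0.0857, 0.0695 and 0.133, and the list held 1 call without ZT21 liver 1 or 3 or ZT9 liver 3 and 2 without ZT21 liver 2 or ZT9 liver 2. Of 35 autophagy genes none was higher and 4 were lower (11.4%, against 2.62% of all genes called lower). Ulk1, the kinase that starts autophagy, was at 38.5, 49.2 and 51.6 against 93.1, 94.3 and 104 (-1.06 ± 0.14, adjusted p = 0.00727). It was the only autophagy call in each of the 6 fits, while Tfeb (-0.64 ± 0.14, adjusted p = 0.0431) and Gabarapl1 (-0.49 ± 0.11, adjusted p = 0.0446) lost theirs in all, with adjusted p up to 0.127 and 0.141.

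Of 21 heat shock factor targets, 7 were called higher at ZT21 (33.3%, against 3.40% of all genes) and none lower, with a median of 0.33. The other 14 did not pass the test, and 6 of them had negative differences, among them the inducible HSP70 genes Hspa1a (-0.35, adjusted p = 0.653) and Hspa1b (-0.81, adjusted p = 0.0803). Hsp90aa1, the inducible HSP90, was at 315, 357 and 430 against 170, 103 and 101 (1.58 ± 0.22, adjusted p = 0.0108). Hspa4l, a nucleotide exchange factor of HSP70, was at 40.5, 54.1 and 53 against 22.6, 22 and 20.8 (1.13 ± 0.13, adjusted p = 0.00553). Hspb1, a small chaperone, was at 24.7, 29 and 29.2 against 8.81, 11.6 and 5.28 (1.63 ± 0.24, adjusted p = 0.0126, lost without ZT21 liver 3 at 0.0541). Fkbp4, Stip1, Ahsa1 and Hsp90ab1, cochaperones of HSP90 and its constitutive form, were also called. Without ZT21 liver 1, 2 or 3 the list held 5, 4 or 3 calls and without ZT9 liver 1, 2 or 3 it held 8, 6 or 4. The cold-inducible Rbm3 gave -0.55 ± 0.21 (adjusted p = 0.166). Of 30 genes of endoplasmic reticulum stress (13.3% called, against 6.02% of all genes), Atf4 (0.56 ± 0.12, adjusted p = 0.0426) and Pdia4 (0.53 ± 0.11, adjusted p = 0.0431) were higher and Herpud1 (-0.89 ± 0.14, adjusted p = 0.0156) and Dnajb9 (-0.79 ± 0.14, adjusted p = 0.0249) lower. The list held no call without ZT9 liver 3, 1 without ZT21 liver 1 or 3 or ZT9 liver 2, and 2 without ZT9 liver 1.

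In the methionine cycle and polyamine list 5 of 24 genes were higher and 1 lower (25% called, against 6.02% of all genes). Bhmt, Bhmt2, Cbs and Cth were among the higher genes, and none of these was steady. Cth, which splits cystathionine to cysteine, was at 366, 400 and 285 against 219, 170 and 203 (0.82 ± 0.16, adjusted p = 0.0323), kept only without ZT21 liver 3 (up to 0.107). Srm, the spermidine synthase, was lower (-0.53 ± 0.12, adjusted p = 0.0493), a call lost in all 6 fits (up to 0.146). The list held 1 call without ZT21 liver 1 or 2 or ZT9 liver 3, 2 without ZT9 liver 1 or 2 and 3 without ZT21 liver 3. Bhmt and Bhmt2 are close paralogs between which reads may be split.

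Of 38 genes of the urea cycle and amino acid catabolism 2 were higher and 2 lower (10.5% called, against 6.02% of all genes). Slc38a3, the glutamine transporter of hepatocytes, was steady and among the most abundant lower genes, at 709, 678 and 624 against 1506, 1584 and 1721 (-1.26 ± 0.11, adjusted p = 0.00135). Slc38a2, a transporter of small neutral amino acids, gave -0.71 ± 0.11 (adjusted p = 0.0132, lost without ZT21 liver 1 or ZT9 liver 3 at up to 0.0527). Ass1, of the urea cycle, was at 3265, 2777 and 2722 against 2050, 2082 and 2006 (0.51 ± 0.11, adjusted p = 0.0426), and Csad, which makes taurine, gave 0.88 ± 0.19 (adjusted p = 0.0425). Ass1 lost its call in all 6 fits and Csad in 5 (up to 0.114 and 0.13), and the list held 1 call without ZT21 liver 1 or ZT9 liver 3 and 2 without ZT21 liver 2 or 3 or ZT9 liver 2. In the NAD list Acmsd, a branch point of tryptophan breakdown, was steady at 34.2, 41.9 and 27 against 13.6, 15 and 12.5 (1.25 ± 0.17, adjusted p = 0.0087), 3 of 24 genes were higher and Nampt was lower (16.7% called), and without ZT21 liver 1 or 3 only 1 call was left, with 2 without ZT21 liver 2 or ZT9 liver 2 or 3.

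Detoxification genes were called in both directions. Of 30 P450 and xenobiotic regulator genes (13.3% called, against 6.02% of all genes) 2 were higher, Cyp2b10 and Cyp3a11, and 2 lower, Por and Cyp2g1 (-1.16 ± 0.11, adjusted p = 0.00177, steady). Without ZT21 liver 3 this list held 2 calls. Of 38 conjugation enzymes 5 were higher and 2 lower (18.4% called), none of them steady. The glutathione transferases Gsta2 (1.08 ± 0.21, adjusted p = 0.032), Gstt3 (1.06 ± 0.17, adjusted p = 0.0159) and Gsta4 (0.67 ± 0.11, adjusted p = 0.0161) were higher, and Ugt2b37 (-1.37 ± 0.29, adjusted p = 0.0391) and Ugt2b38 (-0.80 ± 0.13, adjusted p = 0.0161) were lower. No call was left without ZT21 liver 3 or ZT9 liver 3, 2 were left without ZT21 liver 1 and 3 without ZT21 liver 2 or ZT9 liver 2. Members of these families are similar enough for reads to be split among them. In the iron list, Hamp2 (0.87 ± 0.14, adjusted p = 0.0162), a paralog of hepcidin, and Hfe2 (0.67 ± 0.14, adjusted p = 0.0361), the coreceptor that induces hepcidin, were the 2 calls among 20 genes (10%), with none left without any 1 of the ZT21 livers and 1 left without any 1 of the ZT9 livers.

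Of 34 cell cycle and p53 genes 4 were higher, led by Cdkn1a, and 3 were lower (20.6% called, against 6.02% of all genes). Beside Wee1 the lower genes were Ccne1, at 0.202, 0.456 and 0.724 against 4.04, 3.31 and 3.23 (-1.64 ± 0.15, adjusted p = 0.00195), and Ccnd1, at 11.6, 8.84 and 12.7 against 22.3, 29.3 and 32.2 (-1.26 ± 0.18, adjusted p = 0.011). These cyclins drive passage into S phase. Cdkn1a and the 3 lower genes were steady, Ccng2 (1.15 ± 0.17, adjusted p = 0.012) lost its call without ZT21 liver 3 at 0.0538, and the list held 4 calls in that fit. Of 28 tubulin, actin and SRF target genes 3 tubulins were higher (10.7%, against 3.40% of all genes) and none lower. Beside Tubb2a these were Tubb4b (0.79 ± 0.17, adjusted p = 0.0424) and Tuba4a (0.79 ± 0.12, adjusted p = 0.0145), and Tubb2a was the only call without ZT21 liver 1 or 3 or ZT9 liver 3.

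Among transcription factor families, 1 of 33 nuclear receptors was higher and 2, the REV-ERB genes, were lower, a share of 9.09% beside 6.02% of all genes. Ppard, a receptor for fatty acids, was at 31.9, 30.3 and 32.7 against 4.64, 6.29 and 7.17 (2.23 ± 0.15, adjusted p = 0.000444) and was steady. Of 13 Kruppel-like factors 4 were lower (30.8%, against 2.62% of all genes) and none higher (median -0.34). Klf13 was the steady one, at 24.6, 17.8 and 26.2 against 72.6, 68.3 and 72.7 (-1.62 ± 0.15, adjusted p = 0.00201), and Klf1, Klf2 and Klf16 lost their calls in all 6 fits (adjusted p up to 0.132, 0.128 and 0.124). The list held 2 calls without ZT9 liver 2 and 1 in each other fit. In the glucocorticoid list of 16 genes (25% called) Tsc22d3, a classical target, was higher (1.30 ± 0.24, adjusted p = 0.0254), while Mt1, Mt2 (-1.70 ± 0.38, adjusted p = 0.0461) and Per1 were lower. None of the 4 was steady, and no call was left without ZT21 liver 2 or 3 or ZT9 liver 1.

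Large gene families of basic cell functions held few or no calls, where 6.02% of all genes were called. The smaller of these lists would hold few calls at that share. None of 77 cytosolic ribosomal proteins, 77 respiratory chain genes, 38 proteasome subunits, 30 vesicle coat genes or 25 apolipoprotein genes passed the test, and their medians were 0.10, 0.15, 0.04, -0.09 and 0.03. None of 61 initiation and elongation factors did either, and without ZT21 liver 2 or 3 there was 1. Of the 77 mitochondrial ribosomal proteins Mrpl34 (0.50 ± 0.10, adjusted p = 0.0289) and Mrps2 (0.45 ± 0.10, adjusted p = 0.0447) were higher, with no call left in any of the 6 fits. Tars was the only one of 35 aminoacyl-tRNA synthetases called, in all 6 fits as well, at 182, 196 and 217 against 107, 81 and 82.5 (1.14 ± 0.14, adjusted p = 0.00666). Other lists held 1 call each: Igfbp4 in the growth hormone axis (-0.75 ± 0.12, adjusted p = 0.0174), Nop16 in ribosome biogenesis (0.66 ± 0.11, adjusted p = 0.0218), Fech in heme synthesis (-0.41 ± 0.09, adjusted p = 0.0473) and Socs3 among acute-phase genes (-1.15 ± 0.25, adjusted p = 0.0431). G6pdx and Klf2, given above, were the calls of the NRF2 and immediate early lists. Each of the first 4 lost its call in at least 4 of the 6 fits, with adjusted p up to 0.0669, 0.0747, 0.138 and 0.114. Of 41 mitochondrial carriers 1 was higher and 3 lower (9.76% called, against 6.02% of all genes), led by Slc25a47 (-1.23 ± 0.26, adjusted p = 0.0419), and without any 1 liver at most 1 call was left.

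Markers of other liver cells were measured in the same livers. Of all genes tested, 6.02% were called and 2.62% were called lower, and the median difference was 0.000. The 13 Kupffer cell markers were all lower at ZT21 (median -0.56) and summed to 166, 250 and 260 at ZT21 against 324, 392 and 366 at ZT9. Of them Marco, a scavenger receptor, was called lower and steady (-1.38 ± 0.19, adjusted p = 0.00918), and Cd5l gave -1.15 ± 0.22 (adjusted p = 0.0308, up to 0.0966 and kept only without ZT21 liver 1). The 13 sinusoidal endothelial markers were also all lower (median -0.38) but none was called, with sums of 195, 287 and 291 against 302, 382 and 344. For both sums the exact two-sided permutation p was 0.1, the smallest that 3 livers against 3 allow. The 12 hepatocyte markers held no call (median 0.04), with sums of 110539 to 126026 at ZT21 and 103068 to 104353 at ZT9 (p = 0.1, exact permutation). Albumin, with means of 66201 at ZT21 and 52953 at ZT9, made up most of these sums. The stellate cell, cholangiocyte and T, B and NK cell lists held 1 call each in 13, 7 and 10 measured genes. The calls were Col3a1 (-0.72 ± 0.16, adjusted p = 0.0478), Sox9 (0.94 ± 0.16, adjusted p = 0.0217) and Gzma (-0.57 ± 0.12, adjusted p = 0.0388), none of them steady. Neutrophil and erythroid markers held no call in 5 measured genes each. All 5 erythroid genes had positive differences (median 0.40, exact permutation p = 0.2 for their sum). Of the pancreas and adipocyte lists 1 of 11 and 2 of 6 genes were measured. The lower genes above were not split by cell type, and the part of these markers in them was not tested. Periportal genes had a median of 0.20 and pericentral genes of -0.20, with Ass1 higher in the first and Rnf43 (-1.02 ± 0.18, adjusted p = 0.0249) and Slc1a2 (-0.74 ± 0.15, adjusted p = 0.033) lower in the second, none of them steady.

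The other 12 h steps of the day, in the livers of the other 4 time points, were tested in the same way. Between ZT17 and ZT5 1689 of 14433 genes (11.7%) were called and between ZT13 and ZT1 1328 of 14434 (9.20%), both more than the 6.02% between ZT21 and ZT9. The ZT21 to ZT9 difference was unlike the ZT17 to ZT5 difference for 569 of 14449 genes (3.94%) and unlike the ZT13 to ZT1 difference for 2515 (17.4%), by limma's test of the difference over all 18 livers. Of the 868 genes called here, 185 passed the first of these tests and 686 the second. These genes, and the 95 given next, were chosen by their ZT21 to ZT9 difference in livers that also enter the tests. Both counts are therefore a description. For 95 genes, 66 higher and 29 lower, both tests passed and the fitted ZT21 to ZT9 difference was the largest of the 3 in absolute value. The tests compare signed differences, so genes of opposite sign pass with nearly equal sizes, and the order in size was not tested. Each step was taken as the dark time minus the light time. The count of 2515 and the 95 genes depend on that order, and ZT1 minus ZT13 was not tested.

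Clock genes were among these 95. Npas2 differed by 3.53 here, by 0.64 between ZT17 and ZT5 and by -3.51 between ZT13 and ZT1 (adjusted p of the differences 1.84e-05 and 1.78e-11). Ciart gave -3.21, -0.59 and 3.11 (0.00333 and 1.12e-07), and Dbp gave -5.87, -4.60 and 3.37 (0.0101 and 3.01e-12). Elovl3 and Tubb2a were also among them, the first with 4.0, 0.83 and -3.30 (0.000155 and 2.13e-09) and the other with 3.33, 1.37 and -1.66 (0.000194 and 1.17e-09). Clpx gave 2.62, 0.81 and -1.90 (4.73e-05 and 9.27e-11) and Insig2 2.19, 0.19 and -1.70 (0.000108 and 8.23e-09). Nr1d1, Cry1 and Hsp90aa1 were not among the 95. Nr1d1 differed by -5.54 between ZT17 and ZT5, more than the -3.90 here (0.0277), and Cry1 by 2.67 against 2.32 (0.511). The heat shock gene Hsp90aa1 gave 1.58 here and 2.20 between ZT17 and ZT5 (0.257), and Per2, which did not pass here, gave 1.95 between ZT17 and ZT5 and 2.97 between ZT13 and ZT1, both unlike its -0.76 (0.000416 and 2.38e-06).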

How the data were processed

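PolyA RNA of 18 mouse livers, 3 at each of 6 times, was sequenced. Per the labels and the study's methods, the authors removed adapters with cutadapt, quantified reads on the GRCm38 transcriptome with RSEM 1.2.20 as estimated counts, and normalized them with limma. The deposited signal was read as the estimated count plus 0.5 per 1000000 reads of an effective library size. The lowest value of each liver was taken to stand for no read, and the read counts given here rest on this reading. The values were not whole reads, so the main test was not a count test. The voom alternative used reads worked back from the values. Columns of all samples were used.

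Here, log2(value + 1) was tested with limma 3.58.1 (R 4.3.3, moderated test, two-sided) in the 6 livers, with Benjamini-Hochberg adjustment over 14427 genes, leaving out 24 genes without reads in these livers. The script was tested on simulated data. Differences between 12 h steps were tested over all 18 livers. Coordinates came from GENCODE (14383 genes matched) and promoters from RefSeq. Promoter windows running over 30 bases into the annotated gene were not printed. The members and gene lists were chosen with earlier results of these data known. Named genes were all measured members of the clock lists, the 10 called genes with the largest difference in each direction (non-overlapping livers, higher mean at least 5, predicted genes left out), up to 3 called members per list and direction (higher mean at least 1) or, with none called, the most abundant member, and the 10 called genes with the largest absolute difference in level. Some genes that meet these rules are not reported here. A gene named outside these was chosen after its values were seen. Alternatives were 2 other pseudocounts (0.1 and 5), a filter on low values, all 18 livers, other scalings, limma-trend, voom weights, stricter thresholds and each liver left out. The labels do not say more about the replicates than separate mice, and they were compared as such. Strand use in counting was not stated, so reads of overlapping genes on opposite strands could not be told apart. The precision of counting is given only for genes with few reads, and such intervals cover counting error only.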

Additional observations from a re-analysis of the deposited data

Results flagged for a closer look

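Over all 18 livers, the ZT21 minus ZT9 difference was unlike the ZT17 minus ZT5 difference for 569 of 14449 genes and unlike the ZT13 minus ZT1 difference for 2515, by limma's test of the difference between the 2 contrasts. Each step was taken as the dark time minus the light time, and both counts depend on that order of subtraction. Taking ZT1 minus ZT13 would turn the sign of that step, and this order was not tested. Genes of opposite sign pass with nearly equal sizes, as Npas2 did with 3.53 here and -3.51 between ZT13 and ZT1. Leaving out each of the 18 livers in turn gave 383 to 584 genes for the first and 2042 to 2568 for the second.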

How the results depend on the processing

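Of the 126 named genes called, none changed direction under any alternative, but 51 lost their call with a pseudocount of 0.1, 16 with equal column totals, 7 with quantile normalization, 8 with all 18 livers and 44 to 68 without 1 liver. Counts of calls moved more than the directions. A filter on means of at least 1 (558 higher and 458 lower) and quantile normalization (474 and 401) stayed within 1.5 times. Against 490 genes higher and 378 lower, a pseudocount of 0.1 gave 288 and 187, and a pseudocount of 5 gave 732 and 695. The use of all 18 livers gave 813 and 733, and without ZT5 liver 3, an alternative chosen after seeing the data because an earlier look at these data placed that liver nearest to ZT9, 794 and 706. limma-trend gave 711 and 705 and voom weights 702 and 688. A 2-fold threshold left 157 and 85 genes and an adjusted p under 0.01 left 128 and 61. Leaving out each liver in turn gave 168 to 295 higher and 88 to 181 lower genes, from 5 livers. Between ZT13 and ZT1, a pseudocount of 0.1 gave 840 genes in place of 1328. The cause of these moves was not tested, except that fits on 5 livers have fewer samples and stricter thresholds pass fewer genes. With 3 livers per time, exact permutation of single values cannot go below 0.1.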

Other observations

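Among the 95 genes whose fitted 12 h difference was largest in absolute value between ZT21 and ZT9, several named here after their values were seen belong to no list above. Adck3, a kinase-like protein of coenzyme Q synthesis, stood at 443, 513 and 443 at ZT21 and at 134, 124 and 118 at ZT9 (1.88, limma adjusted p = 0.00024), while Coq10b, a coenzyme Q binding protein, stood at 15, 11.5 and 13.8 against 51.4, 49.4 and 48.9 (-1.83, limma adjusted p = 0.000435). The pair differed in opposite directions. Aqp8, a water channel of the hepatocyte, stood at 258, 272 and 324 against 61.3, 67 and 45.9 (2.29, limma adjusted p = 0.000633). Avpr1a, the vasopressin receptor of liver, stood at 43.9, 34.9 and 31.5 against 9.07, 10.7 and 9.42 (1.81, limma adjusted p = 0.000978). Between ZT13 and ZT1 Adck3, Coq10b, Aqp8 and Avpr1a gave -1.36, 1.11, -2.04 and -1.52, each opposite in sign to its difference here. The means of Adck3, Aqp8 and Avpr1a were higher at ZT1 (521, 292 and 43.2) than at ZT21 (466, 285 and 36.8). The order in size was not tested.

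Slc30a10, a manganese exporter, stood at 82, 89.3 and 92.3 against 30, 24 and 28.7 (1.64, limma adjusted p = 0.000651). Gldc, the glycine cleavage decarboxylase, stood at 182, 201 and 177 against 70, 70.4 and 61.9 (1.46, limma adjusted p = 0.000692), and Ethe1, which oxidizes sulfide in mitochondria, at 63.5, 58.3 and 60.2 against 22.7, 16.5 and 18.5 (1.62, limma adjusted p = 0.00113). Hacl1, of peroxisomal alpha-oxidation, stood at 567, 568 and 621 against 210, 170 and 143 (1.76, limma adjusted p = 0.00145). For Slc30a10, Gldc, Ethe1 and Hacl1 the ZT13 minus ZT1 differences were -0.62, -0.32, -1.32 and -0.74.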
